A study of Mus musculus with 5 samples.

Results

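The comparison set the library labelled HIF-1α overexpression (numerator) against the library of dynamic suspension culture (denominator), gene by gene, over all 54100 genes of the deposited table. It used 2 of the 5 libraries of the series, all made from B16F10, a pigmented melanoma cell line of C57BL/6 mouse origin. The 2 libraries were chosen because their Hif1a transcript stood at nearly the same level, once with an overexpression label and once without. By the labels, the overexpression cells carry the genotype overexpression, and the dynamic suspension cells are wild type. No treatment is listed for either. The construct, its promoter, and whether the overexpressing cells were 1 clone or many are not stated in the labels. The labels give the same growth protocol to every sample, serum-free medium without added growth factors in a shaken dish, so the titles alone tell the cultures apart. In each group 3 repeats were pooled into 1 library of poly(A)-selected RNA. The 3 other libraries are given beside as levels. Conventional 3D culture and shControl are labelled wild type, and the third has the genotype knockdown.

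The transcription factor HIF-1 joins a constant subunit to one that oxygen controls, HIF-1α. In oxygen, prolyl hydroxylases of the EGLN family mark the protein, the VHL ubiquitin ligase binds the marked form, and the proteasome destroys it. In low oxygen it escapes, pairs with ARNT and switches on genes of glycolysis, oxygen delivery and cell survival through DNA elements with the core ACGTG. The amount of the protein is therefore set largely after transcription, and transcript levels of Hif1a do not show it. By its title, the series concerns HIF-1α, stem-like tumour cells and the p53 pathway.

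Since each group has a single library, the differences have no replicate check and no p-values are given. Intervals are 95% intervals of a ratio of 2 counts (exact conditional binomial, Clopper-Pearson), so they cover counting error only. The deposited values summed to 15393189 in the overexpression library and to 61014260 in the dynamic suspension library. The 2 columns were of different kinds. In the dynamic suspension column 29.2% of the values from 1 to 40 were multiples of 4, with 926 genes at 4 and 425 genes at 3. In the overexpression column 17.3% were multiples of 4, with 487 genes at 4 and 620 genes at 3. The first column therefore holds estimated counts and the second plain counts, and the values of dynamic suspension were divided by 4 in the intervals. Pseudogenes held 4.0% of the summed values in dynamic suspension and 0.714% in the overexpression library. The kind of column and the group cannot be told apart in this comparison. For this reason the main set was held to protein-coding genes of own sequence, which overlap no exon of another gene and share under 5% of their 75-base words with other genes. Levels are CPM, the value of a gene scaled to a fixed total of the values in such genes and then by TMM, which evens out differences in composition. They depend on gene length and are compared between libraries, not between genes.

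Of 12794 protein-coding genes of own sequence, 6761 averaged at least 1 CPM in the 2 libraries and count as measured. In the overexpression library 716 of them (10.6%) were called higher and 525 (7.77%) lower. A call needed a log2 ratio of at least 1 in size and an interval that excluded a ratio of 1. The share called in either direction was 18.4%. The median log2 ratio was 0.005, the middle 50% of genes lay between -0.40 and 0.46, and 4167 genes (61.6%) were within 1.5-fold. Beyond 8-fold, 52 genes were higher and 99 lower. Among the called genes of this set 57.7% were higher. With TMM factors from all genes, 809 genes were called higher and 370 lower, so that 68.6% of calls were higher. These factors moved the median log2 ratio of the set by 0.118. They also scale to the sum of all values, so that CPM are lower and fewer genes reach 1 CPM. Scaling by totals of own-sequence values moved the median by 0.095 and gave 841 higher and 453 lower. Over all 14020 measured genes of the table, 1449 (10.3%) were called higher and 2298 (16.4%) lower, a share of 38.7% higher. A gene is said here to follow the kind of column when both plain-count libraries stood on the same side of all 3 estimated-count libraries, by over 2-fold from each. Of the lower calls 65 of 525 (12.4%) did so in the main set, against 842 of 1773 (47.5%) among all other genes. Of the 716 higher calls in the main set, 28 (3.91%) did so. Among the 5112 measured protein-coding genes of shared sequence, 374 were called higher and 924 lower.

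**Figure D1:**
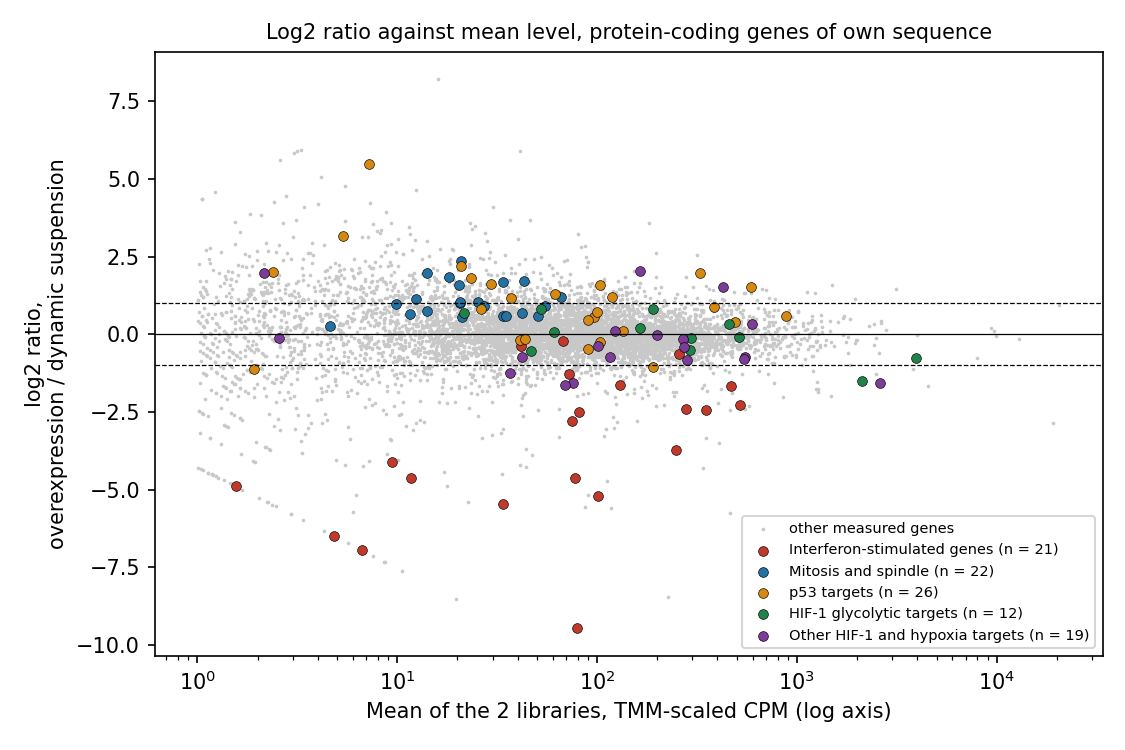
Log2 ratio of overexpression over dynamic suspension (vertical axis) against the mean of the 2 libraries in TMM-scaled CPM (horizontal log axis), 1 point per measured protein-coding gene of own sequence, with 5 gene lists in colour and dashed lines at 2-fold. The 21 interferon-stimulated genes all lie below 0, the 22 mitotic genes all lie above 0, and the straight edge at the lower left is formed by genes with 0 counts in the overexpression library.

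Hif1a itself, the oxygen-regulated subunit, differed little between the 2 libraries. The pair was chosen for that, so this small difference is not a result. Hif1a (chromosome 12, 73901375 to 73947530, plus strand in GRCm38, ENSMUSG00000021109) stood at 835 CPM in dynamic suspension and 757 in the overexpression library, beside 1126 in conventional 3D culture, 132 in shControl and 188 under the knockdown label. The dynamic suspension and overexpression libraries were thus close to each other, below conventional 3D culture and above the other 2. The log2 ratio was -0.14 (-0.19 to -0.09). The gene shares 330 exon bases with the antisense gene Gm15283 and 148 with Gm49321, out of 5896, so that it fell outside the main set. In the library labelled knockdown Hif1a was higher than in shControl, against the label, and no direction is drawn here from that label.

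Of 17 HIF subunits and oxygen sensors listed, Hif1a included, 11 were measured with own sequence, 4 measured with shared sequence and 2 were below 1 CPM. Of the 11, 1 was called higher (10.6% of all measured genes were) and 2 lower, around a median log2 ratio of -0.09. Epas1, which encodes HIF-2α (chromosome 17, 86753700 to 86833410, plus strand, ENSMUSG00000024140), stood at 29.3 CPM in dynamic suspension and 60.4 in the overexpression library, beside 50 in conventional 3D culture, 28.3 in shControl and 39.1 under the knockdown label. Its log2 ratio was 1.04 (0.81 to 1.28), the only higher call of this list. The lower calls were Egln1 and Vhl, beside 7.77% of all measured genes called lower. From here on, values are written as dynamic suspension against overexpression, beside conventional 3D culture, shControl and the library labelled knockdown in that order. Egln1, the main prolyl hydroxylase and itself a HIF-1 target (chromosome 8, 124908587 to 124949324, minus strand), stood at 640.1 against 277 CPM, beside 207, 108 and 182, with a log2 ratio of -1.21 (-1.28 to -1.14). Vhl, the substrate receptor of the ubiquitin ligase (chromosome 6, 113623959 to 113631633, plus strand), stood at 239 against 98.4 CPM, beside 103, 90.4 and 108, with a log2 ratio of -1.28 (-1.4 to -1.16). For both genes dynamic suspension was the highest of the 5 libraries, with the overexpression library below it by over 2-fold. Egln3, the hypoxia-inducible hydroxylase, stood at 20.2 CPM in dynamic suspension and 22.7 CPM in the overexpression library (log2 ratio 0.17 (-0.15 to 0.49)). Hif1an, the asparaginyl hydroxylase FIH, stood at 126 CPM in dynamic suspension and 118 CPM in the overexpression library (log2 ratio -0.09 (-0.22 to 0.04)). Arnt, the partner subunit, stood at 166 CPM in dynamic suspension and 197 CPM in the overexpression library (log2 ratio 0.24 (0.14 to 0.35)). None of these 3 was called.

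The promoters of 3 lower genes in the HIF lists and of Ldha, which was not called, show how the ACGTG core sits upstream of RefSeq starts. The first 3 genes differed and Ldha differed less. Only stretches that held the core could be printed. Each line is the 150 bases upstream of a RefSeq start (build GRCm38.p6), 5′ to 3′ on the gene's strand, with the core in capitals on whichever strand it lies (CACGT is its complement). Egln1 is at chr8:124949255-124949404, minus strand. Hilpda is at chr6:29272476-29272625, plus strand. Ero1l, named Ero1a in RefSeq, is at chr14:45318573-45318722, minus strand. Ldha is at chr7:46845654-46845803, plus strand, upstream of 1 of its annotated starts. The gene spans given in the text for Egln1, Hilpda and Ero1l, from GENCODE, begin upstream of these RefSeq starts. The Egln1 and Hilpda stretches therefore lie partly, and the Ero1l stretch wholly, inside the GENCODE span.
Egln1: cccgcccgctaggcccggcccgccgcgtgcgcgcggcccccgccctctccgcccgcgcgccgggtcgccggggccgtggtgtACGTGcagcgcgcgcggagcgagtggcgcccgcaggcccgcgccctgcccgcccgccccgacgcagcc
Hilpda: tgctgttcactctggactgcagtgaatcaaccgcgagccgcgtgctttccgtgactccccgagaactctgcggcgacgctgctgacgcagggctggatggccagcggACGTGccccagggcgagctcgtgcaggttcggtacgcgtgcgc
Ero1l: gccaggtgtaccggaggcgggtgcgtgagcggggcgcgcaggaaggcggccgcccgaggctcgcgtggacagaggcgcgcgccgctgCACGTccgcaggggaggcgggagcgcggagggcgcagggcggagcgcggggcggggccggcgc
Ldha: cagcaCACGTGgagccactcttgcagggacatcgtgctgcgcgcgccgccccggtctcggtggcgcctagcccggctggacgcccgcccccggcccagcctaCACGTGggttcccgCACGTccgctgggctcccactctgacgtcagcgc
The Ldha stretch held 5 matches, of which 4 came from 2 copies of CACGTG read on both strands, and the other 3 stretches held 1 each. Over the 300-base RefSeq promoters (250 bases before to 50 after a start, both strands searched), ACGTG was in 8 of 15 promoters (53.3%) of the glycolytic list and in 11 of 24 (45.8%) of the other hypoxia list. It was in 26.1% of the 6892 promoters of measured genes and in 19.6% of all 32851. Among genes called higher, 21.8% of 707 promoters held it. These matches cover 11 of 12 glycolytic genes, 16 of 19 other hypoxia genes, 575 of 716 genes called higher and 5421 of 6761 measured genes. Fewer than 80% of the genes called lower had a promoter in the table, and that share is not given. A match is a run of letters and was not tested as a binding site.

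Glycolytic HIF-1 targets were near level in the own-sequence set. Of 25 listed, 12 were measured with own sequence and 13 with shared sequence, and 1 of the 12 was called, lower, against 7.77% of all measured genes. The median log2 ratio of the 12 was -0.01. Pfkl, the liver-type phosphofructokinase (chromosome 10, 77986947 to 78010083, minus strand), was that gene, with 3137 against 1118 CPM, beside 1087, 525 and 526. Its log2 ratio was -1.49 (-1.52 to -1.45), and dynamic suspension stood well above the other 4 libraries. Ldha, which turns pyruvate into lactate, stood at 4954 against 2931 CPM, beside 3403, 2376 and 4366 and had a log2 ratio of -0.76 (-0.78 to -0.73). Pdk1, a kinase that inhibits pyruvate dehydrogenase, stood at 342 against 242 CPM, beside 234, 63 and 69 and had a log2 ratio of -0.50 (-0.59 to -0.42).

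Several glycolytic genes were high in both libraries of the pair and in conventional 3D culture. Aldoc, an aldolase isoform, stood at 306 against 282 CPM, beside 278, 19.2 and 32.4, a log2 ratio of -0.11 (-0.20 to -0.03). Slc16a3, the lactate exporter MCT4, stood at 407 against 508 CPM, beside 609, 84.5 and 205, a log2 ratio of 0.32 (0.25 to 0.39). Both genes had their 2 lowest values in shControl and the library labelled knockdown, as Hif1a had, whereas Ldha, given above, did not. Eno2, an enolase isoform, was highest in the overexpression library, with 139 against 243 CPM, beside 115, 47.3 and 21.9 and a log2 ratio of 0.81 (0.70 to 0.92). Slc2a3, a glucose transporter, stood at 37.8 CPM in dynamic suspension and 67.1 CPM in the overexpression library (log2 ratio 0.83 (0.62 to 1.04)). Hk2, a hexokinase, stood at 531 CPM in dynamic suspension and 501 CPM in the overexpression library (log2 ratio -0.08 (-0.15 to -0.02)). Of the 13 members of shared sequence, 6 were called lower and 0 higher, beside 924 of all 5112 shared-sequence protein-coding genes called lower. Values of such genes are uncertain. The 13 include Slc2a1, the glucose transporter GLUT1, at 354 CPM in dynamic suspension and 147 CPM in the overexpression library, and Gapdh at 1915 CPM in dynamic suspension and 745 CPM in the overexpression library. With all 25 members the list's median was -0.34.

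Of 41 other HIF-1 and hypoxia targets, 19 were measured with own sequence, 18 with shared sequence and 4 were below 1 CPM. Of the 19, 3 were called higher and 4 lower, beside 10.6% and 7.77% of all measured genes. Of the 19 log2 ratios, 14 were below 0, with a median of -0.40. Ero1l, the oxidase that drives disulfide formation in the endoplasmic reticulum (chromosome 14, 45283087 to 45318771, minus strand), stood at 3872 against 1318 CPM, beside 778, 253 and 241 in the order given above. The log2 ratio was -1.55 (-1.59 to -1.52). Hilpda, a lipid droplet protein induced by hypoxia (chromosome 6, 29272488 to 29275446, plus strand), stood at 114 against 38.1 CPM, beside 20.9, 33.8 and 48.1, a log2 ratio of -1.58 (-1.77 to -1.39). For both genes dynamic suspension was the highest library, and the overexpression library was within the range of the other 3 for Hilpda and above them for Ero1l. Zfp395, a hypoxia-induced zinc finger protein, had a log2 ratio of -1.64 (-1.84 to -1.44), and Rcor2, a REST corepressor, one of -1.23 (-1.5 to -0.98).

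The 3 higher hypoxia targets went against the median of their list. Ddit4, the mTORC1 inhibitor REDD1 (chromosome 10, 59949669 to 59951834, minus strand), stood at 64.7 against 263 CPM, beside 128, 96.5 and 190.4, lowest in dynamic suspension and highest in the overexpression library. Its log2 ratio was 2.02 (1.88 to 2.17). Tfrc, the transferrin receptor, stood at 222 against 637 CPM, beside 369, 786 and 583, a log2 ratio of 1.52 (1.44 to 1.60). Car12, a membrane carbonic anhydrase, rested on 30 counts against a value of 23 and had a log2 ratio of 1.98 (0.76 to 3.61). Among the 18 members of shared sequence 0 were called higher and 7 lower, including Bnip3, a mitophagy receptor, at 1369 CPM in dynamic suspension and 360.1 CPM in the overexpression library. Of all 5112 measured protein-coding genes of shared sequence, 924 were called lower.

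**Figure D2:**
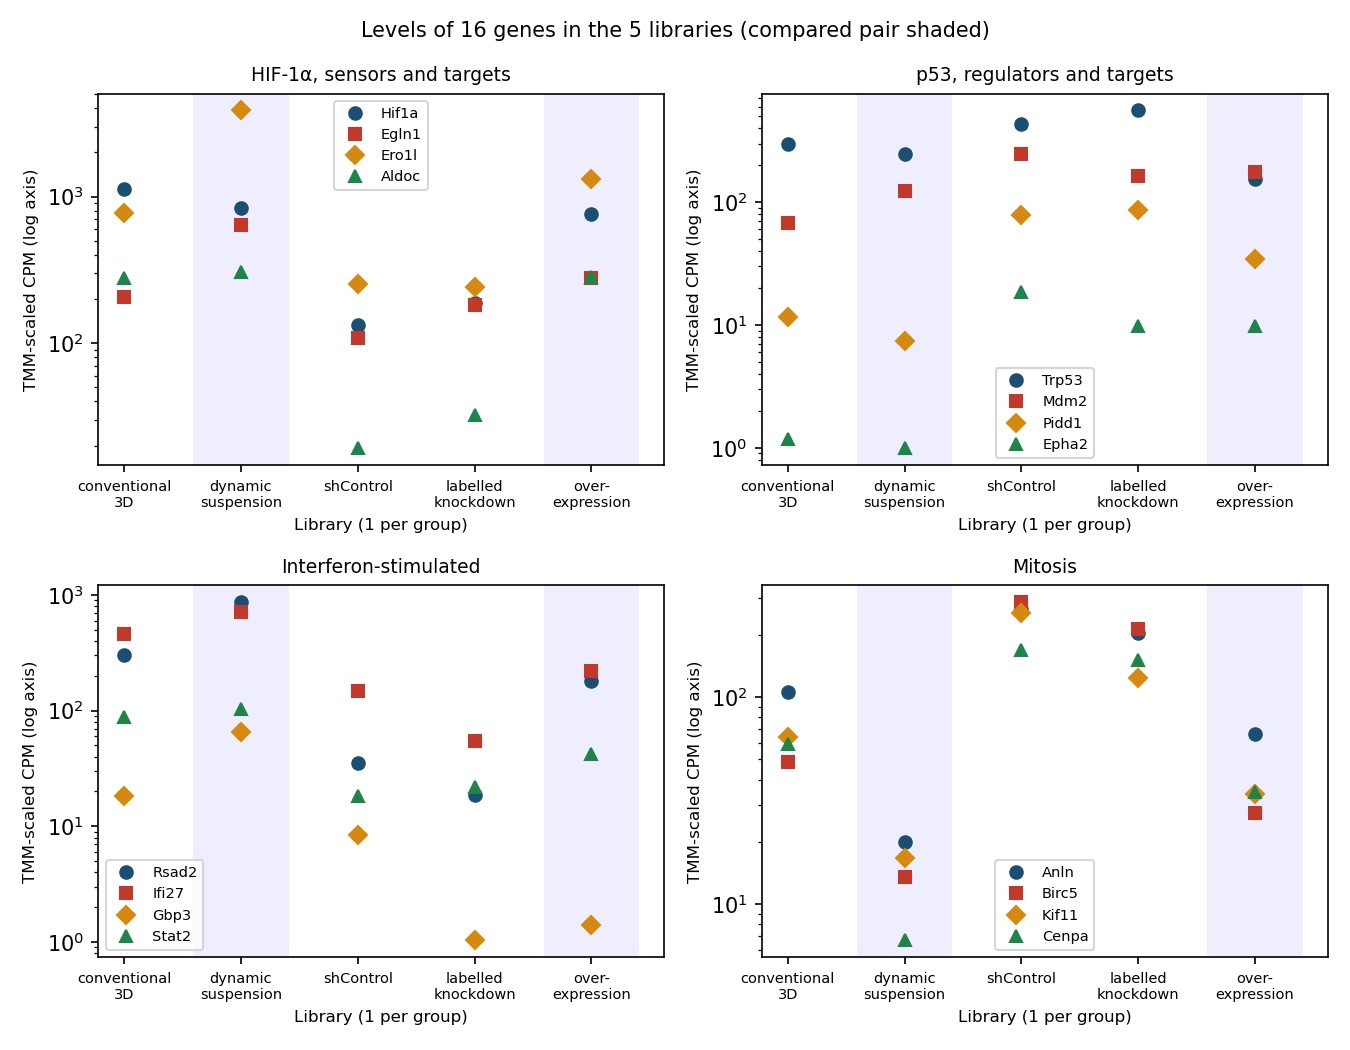
TMM-scaled CPM (vertical log axis) of 16 genes in each of the 5 libraries (horizontal axis, 1 library per group), 1 symbol per gene, in 4 panels, with the compared pair shaded. Hif1a, by which the pair was chosen, and Aldoc are level across the shaded pair. Egln1, Ero1l and the interferon-stimulated genes are lower in the overexpression library, and the mitotic genes are higher there but lower than in shControl.

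p53 is a transcription factor that stress stabilises. MDM2 and MDM4 hold it in check, and MDM2 is also its target. Its targets include genes of cell cycle arrest, DNA repair and cell death. Of 22 listed genes of p53 and its regulators, 10 were measured with own sequence, 8 with shared sequence and 4 were below 1 CPM. Of the 10, 1 was called higher and 0 lower, beside 10.6% and 7.77% of all measured genes, with a median log2 ratio of -0.17. Trp53, which encodes p53 (chromosome 11, 69580359 to 69591873, plus strand), stood at 248 CPM in dynamic suspension and 156 in the overexpression library, beside 298 in conventional 3D culture, 434 in shControl and 559 under the knockdown label. The overexpression library was thus the lowest of the 5, and the log2 ratio was -0.67 (-0.78 to -0.57), short of a call. Mdm4, a p53 inhibitor related to Mdm2 (chromosome 1, 132959484 to 133030561, minus strand), stood at 157 against 449.8 CPM, beside 154, 159 and 108, over 2-fold above each of the other 4 libraries. Its log2 ratio was 1.52 (1.42 to 1.62).

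Mdm2, the ubiquitin ligase of p53 (chromosome 10, 117688875 to 117710758, minus strand), stood at 123 against 176 CPM, beside 67.2, 246 and 163, a log2 ratio of 0.51 (0.39 to 0.64). Kinases upstream of p53 were within 1.5-fold. Atm, which responds to DNA breaks, had a log2 ratio of -0.30 (-0.45 to -0.14), Chek1 one of -0.17 (-0.62 to 0.28) and Chek2 one of 0.06 (-0.20 to 0.32). Ppm1d, a phosphatase that ends the p53 response, had one of -0.29 (-0.52 to -0.07). Of the 8 members of shared sequence, 4 were called lower and 0 higher, beside 924 of 5112 such protein-coding genes called lower.

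Of 42 p53 targets, 26 were measured with own sequence, 13 with shared sequence and 3 were below 1 CPM. In the overexpression library 12 of the 26 were called higher, beside 10.6% of all measured genes, and 2 were called lower, beside 7.77%. The median log2 ratio was 0.84 and 20 of 26 ratios were above 0. In the second pair of libraries, labelled knockdown over shControl, the same 26 genes had a median of -0.16. Epha2, a receptor tyrosine kinase (chromosome 4, 141301240 to 141329384, plus strand), stood at 0.991 against 9.73 CPM, beside 1.17, 18.6 and 9.85, a log2 ratio of 3.16 (2.19 to 4.65). Pidd1, which assembles a caspase-2 platform (chromosome 7, 141438113 to 141444025, minus strand), stood at 7.43 against 34.5 CPM, beside 11.5, 78.2 and 85.6, a log2 ratio of 2.20 (1.80 to 2.68). For both genes the culture libraries without a construct label were the lowest 2 and shControl was higher than the overexpression library. Eda2r, a death-domain receptor, stood at 0.885 against 3.87 CPM, beside 0.938, 3.99 and 1.55, a log2 ratio of 2.0 (0.92 to 3.73).

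Gdf15, a secreted stress cytokine (chromosome 8, 70629393 to 70632456, minus strand), had 121 counts in the overexpression library and a value of 6 in dynamic suspension. Its plain ratio of CPM, without the prior count of the log2 ratios, was 66.8 (counting interval 13.6 to 419). Its levels were 0.212 against 14.2 CPM, beside 0.313, 0.35 and 3.89, so it followed the kind of column. Cdkn1a, the cell cycle inhibitor p21 (chromosome 17, 29090976 to 29100727, plus strand), shares sequence with another gene and stood at 928 against 1154 CPM, beside 710.02, 914 and 965, a log2 ratio of 0.31 (0.27 to 0.36). The 2 lower targets were Sesn2, a stress-responsive inhibitor of mTORC1, with 257 against 124 CPM, beside 103, 249.9 and 383 and a log2 ratio of -1.05 (-1.16 to -0.94), and Perp, a desmosome protein, with 10 counts and a log2 ratio of -1.13 (-2.46 to -0.02). Both lower calls ended with TMM factors from all genes and with scaling by totals. The smallest higher calls were Tnfrsf10b, a death receptor, at 1.16 and Ercc5, a nucleotide excision repair nuclease, at 1.18. Sesn2 also belongs to the integrated stress response. Of the 13 members of shared sequence, 5 were called higher and 2 lower, beside 374 and 924 of 5112 such protein-coding genes.

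Mitotic genes were higher in the overexpression library than in dynamic suspension, and those named here were lower than in shControl. All 34 genes of the mitosis and spindle list were measured, 22 with own sequence and 12 with shared sequence. Of the 22, 11 were called higher and 0 lower, beside 10.6% and 7.77% of all measured genes, and all 22 log2 ratios were above 0, from 0.28 to 2.37, with a median of 0.99. In labelled knockdown over shControl their median was -0.46. Cenpa, the centromeric histone (chromosome 5, 30666777 to 30674830, plus strand), stood at 6.69 CPM in dynamic suspension and 34.9 in the overexpression library, beside 59.3 in conventional 3D culture, 169 in shControl and 152 under the knockdown label, a log2 ratio of 2.37 (1.95 to 2.87). Anln, a cytokinesis scaffold (chromosome 9, 22332012 to 22389188, minus strand), stood at 20 against 66 CPM, beside 106, 268 and 204, a log2 ratio of 1.72 (1.45 to 1.99). For both genes dynamic suspension was the lowest library and shControl the highest.

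Cenpe, a kinetochore motor, had a log2 ratio of 1.96 (1.49 to 2.52), and Hmmr, a spindle protein, one of 1.83 (1.41 to 2.28). The smallest higher calls were Bub1, a checkpoint kinase, at 13.6 against 27.6 CPM, beside 52.4, 234 and 76.2 (log2 ratio 1.01 (0.67 to 1.38)), Birc5, survivin, at 13.5 against 27.6 CPM, beside 48.6, 287 and 212 (log2 ratio 1.03 (0.69 to 1.39)) and Kif11, a spindle motor, at 16.6 against 34 CPM, beside 64.1, 256 and 123 (log2 ratio 1.03 (0.71 to 1.35)). In these 3 genes conventional 3D culture stood above the overexpression library as well. In bulk RNA, fewer cells of a type and less RNA per cell cannot be told apart.

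Of 36 replication and homologous repair genes, 22 were measured with own sequence and 14 with shared sequence. Of the 22, 6 were called higher and 0 lower, beside 10.6% and 7.77% of all measured genes. Their median log2 ratio was 0.70, beside 0.37 in labelled knockdown over shControl. Brca1, a repair ubiquitin ligase (chromosome 11, 101488764 to 101551955, minus strand), stood at 60.6 against 216 CPM, beside 992, 221 and 145, a log2 ratio of 1.83 (1.68 to 1.99). Its level in conventional 3D culture was the highest of the 5 by over 4-fold. Rrm2, the regulated subunit of ribonucleotide reductase, stood at 49.7 against 145 CPM, beside 219, 879.8 and 1139.9, a log2 ratio of 1.54 (1.37 to 1.72). E2f2, a cell cycle transcription factor, had a log2 ratio of 1.77 (1.11 to 2.54), and Cdt1, a licensing factor of replication origins, one of 1.36 (1.10 to 1.63). Of 5 measured G1 cyclins and CDK inhibitors of own sequence, Cdkn2c, the inhibitor p18, was called higher, at 73.5 against 172 CPM, beside 349, 123 and 174 and a log2 ratio of 1.23 (1.08 to 1.37).

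Interferon-stimulated genes showed the lowest median of the lists that are not markers of other cell types. Interferons bind surface receptors, and factors that include STAT2 and IRF9 then switch on antiviral genes through elements made of GAAA, any 2 bases and GAAA. All 40 genes of the list were measured, 21 with own sequence and 19 with shared sequence. Of the 21, 18 were called lower in the overexpression library, beside 7.77% of all measured genes, and 0 higher. All 21 log2 ratios were below 0, from -9.46 to -0.21, with a median of -2.80. All 19 members of shared sequence were also called lower, beside 924 of 5112 such protein-coding genes. In labelled knockdown over shControl, which is again a plain over an estimated column, the 21 genes had a median of -0.92. Of the 18 calls, 3 followed the kind of column, and without them the median of the remaining 18 genes was -2.48.

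The promoters of 3 of these genes show the interferon element, and only stretches that held it could be printed. The stretches are again the 150 bases upstream of a RefSeq start (build GRCm38.p6), with the element in capitals (GAAA, any 2 bases and GAAA, or TTTC on both sides when it lies on the other strand). Isg15 was chosen after its values were seen. Gbp3 is at chr3:142559894-142560043, plus strand, and its last bases lie inside the GENCODE span of the gene. Isg15 is at chr4:156200819-156200968, minus strand. Rsad2 is at chr12:26456453-26456602, minus strand.
Gbp3: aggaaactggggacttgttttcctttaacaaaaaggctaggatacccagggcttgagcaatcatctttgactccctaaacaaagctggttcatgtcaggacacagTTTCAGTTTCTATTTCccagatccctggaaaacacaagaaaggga
Isg15: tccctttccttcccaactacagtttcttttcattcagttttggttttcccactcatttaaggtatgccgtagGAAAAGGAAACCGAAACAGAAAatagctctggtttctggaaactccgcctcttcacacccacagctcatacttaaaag
Rsad2: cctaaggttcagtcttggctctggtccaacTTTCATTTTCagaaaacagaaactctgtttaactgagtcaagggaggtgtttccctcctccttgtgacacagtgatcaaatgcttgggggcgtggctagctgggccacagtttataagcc
The stretches held 2, 3 and 1 matches, of which those in Gbp3 and in Isg15 overlap one another. Over the 300-base promoters the pattern was in 9 of 19 (47.4%) of the list, which cover 17 of its 21 genes, in 2.73% of those of measured genes and in 3.44% of all. Among genes called higher, 2.12% of promoters held it.

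Rsad2, viperin (chromosome 12, 26442746 to 26456452, minus strand), stood at 861 CPM in dynamic suspension and 179 in the overexpression library, beside 301 in conventional 3D culture, 35.6 in shControl and 18.8 under the knockdown label, a log2 ratio of -2.27 (-2.35 to -2.19). Isg15, a ubiquitin-like modifier (chromosome 4, 156199424 to 156200818, minus strand), stood at 149.8 against 5.98 CPM, beside 66.5, 8.13 and 2.59, a log2 ratio of -4.62 (-5.08 to -4.24). Dynamic suspension was the highest and conventional 3D culture the next for both, with the overexpression library below conventional 3D culture. Gbp3, a guanylate-binding protein (chromosome 3, 142560026 to 142573209, plus strand), stood at 65.9 against 1.41 CPM, beside 18.4, 8.34 and 1.04, a log2 ratio of -5.45 (-6.51 to -4.73), and followed the kind of column. Oasl2, a member of the oligoadenylate synthetase family, had 1 count in the overexpression library against a value of 4487. The plain ratio of CPM, without a prior count, was 1354 in favour of dynamic suspension (counting interval 243 to 53531). The log2 ratio, which has a prior count, was -9.46. Oasl2 also followed the kind of column. Zbp1, a nucleic acid sensor, had 0 counts against 377, at least 37.9-fold lower. Ifi44, an interferon-induced protein, had 0 counts against 273, at least 27.5-fold lower. The bounds use a floor of 3 counts in the library at 0.

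The smallest differences among the called genes were Stat2, the transcription factor, at 103 against 42.1 CPM, beside 88.3, 18.1 and 21.8 (log2 ratio -1.28 (-1.47 to -1.10)), Parp12, an antiviral ADP-ribosyltransferase, at 198 against 64.3 CPM, beside 184, 60 and 73.1 (log2 ratio -1.62 (-1.77 to -1.48)) and Ifi27, a mitochondrial protein, at 710.1 against 222 CPM, beside 458, 149 and 54.1 (log2 ratio -1.68 (-1.76 to -1.60)). In all 3, the overexpression library stood above shControl and below both culture libraries without a construct label. Xaf1, an interferon-induced promoter of cell death, stood at 198 against 5.28 CPM, beside 123, 10.2 and 0.518, a log2 ratio of -5.20 (-5.69 to -4.80). The defining immune cell markers Ptprc, Cd3e, Itgam, Adgre1 and Csf1r were at 0 in both compared libraries. The 14 immune markers summed to 30.8 CPM in dynamic suspension and 17.4 CPM in the overexpression library, most of it Cd68.

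Several genes of antigen presentation and of inflammatory signalling were called lower, beside 7.77% of all measured genes. Of 17 MHC class I genes, 4 were measured with own sequence and 13 with shared sequence. Of the 4, 3 were called lower and 0 higher, with a median log2 ratio of -1.70. B2m, the light chain of class I molecules (chromosome 2, 122147686 to 122153083, plus strand), stood at 1914 CPM in dynamic suspension and 565 in the overexpression library, beside 1639 in conventional 3D culture, 884 in shControl and 316 under the knockdown label, a log2 ratio of -1.76 (-1.81 to -1.71). H2-K1, a class I heavy chain (chromosome 17, 33996017 to 34000347, minus strand), stood at 519 against 167 CPM, beside 233, 41.1 and 58.3, a log2 ratio of -1.64 (-1.73 to -1.55). Psmb10, an immunoproteasome subunit, stood at 67.7 against 16.2 CPM, beside 56.7, 24.8 and 29.5, a log2 ratio of -2.06 (-2.35 to -1.79). Of the 13 shared-sequence members 9 were called lower and 0 higher, beside 924 of 5112 such protein-coding genes called lower.

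Of 33 NF-κB targets and chemokines, 13 were measured with own sequence, 5 with shared sequence and 15 were below 1 CPM. Of the 13, 9 were called lower and 0 higher, beside 7.77% and 10.6% of all measured genes. Their median log2 ratio was -1.39, and 3 of these calls followed the kind of column. The median was -1.10 without genes that follow the kind of column and -1.78 with no filter on the mean. Lif, a cytokine of the interleukin-6 family (chromosome 11, 4257557 to 4272514, plus strand), stood at 34.6 against 1.06 CPM, beside 1.02, 43.8 and 3.89, a log2 ratio of -4.90 (-6.18 to -4.08), low in both the overexpression library and conventional 3D culture. Cxcl1, a neutrophil chemokine, had 0 counts in the overexpression library against 599, at least 60.2-fold lower, and was at 0 in the library labelled knockdown too. Ccl5, a T-cell chemokine, stood at 229 against 4.69 CPM, beside 40, 15.1 and 0.648, a log2 ratio of -5.58 (-6.10 to -5.16). Cxcl1, Ccl5 and Tnfaip3 were the 3 that followed the kind of column. Nos2, the inducible nitric oxide synthase, had 0 counts against 82, at least 8.25-fold lower, and was at 0 in every library other than dynamic suspension. The smallest of the called differences were in Birc3, an apoptosis inhibitor (-1.05), Relb, an NF-κB subunit (-1.15), Nfkbia, the inhibitor IκBα (-1.39) and Tnfaip3, the deubiquitinase A20 (-1.85), all as log2 ratios. The calls of Nos2 and Birc3 ended with TMM factors from all genes, that of Nos2 because its mean fell below 1 CPM there.

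**Figure D3:**
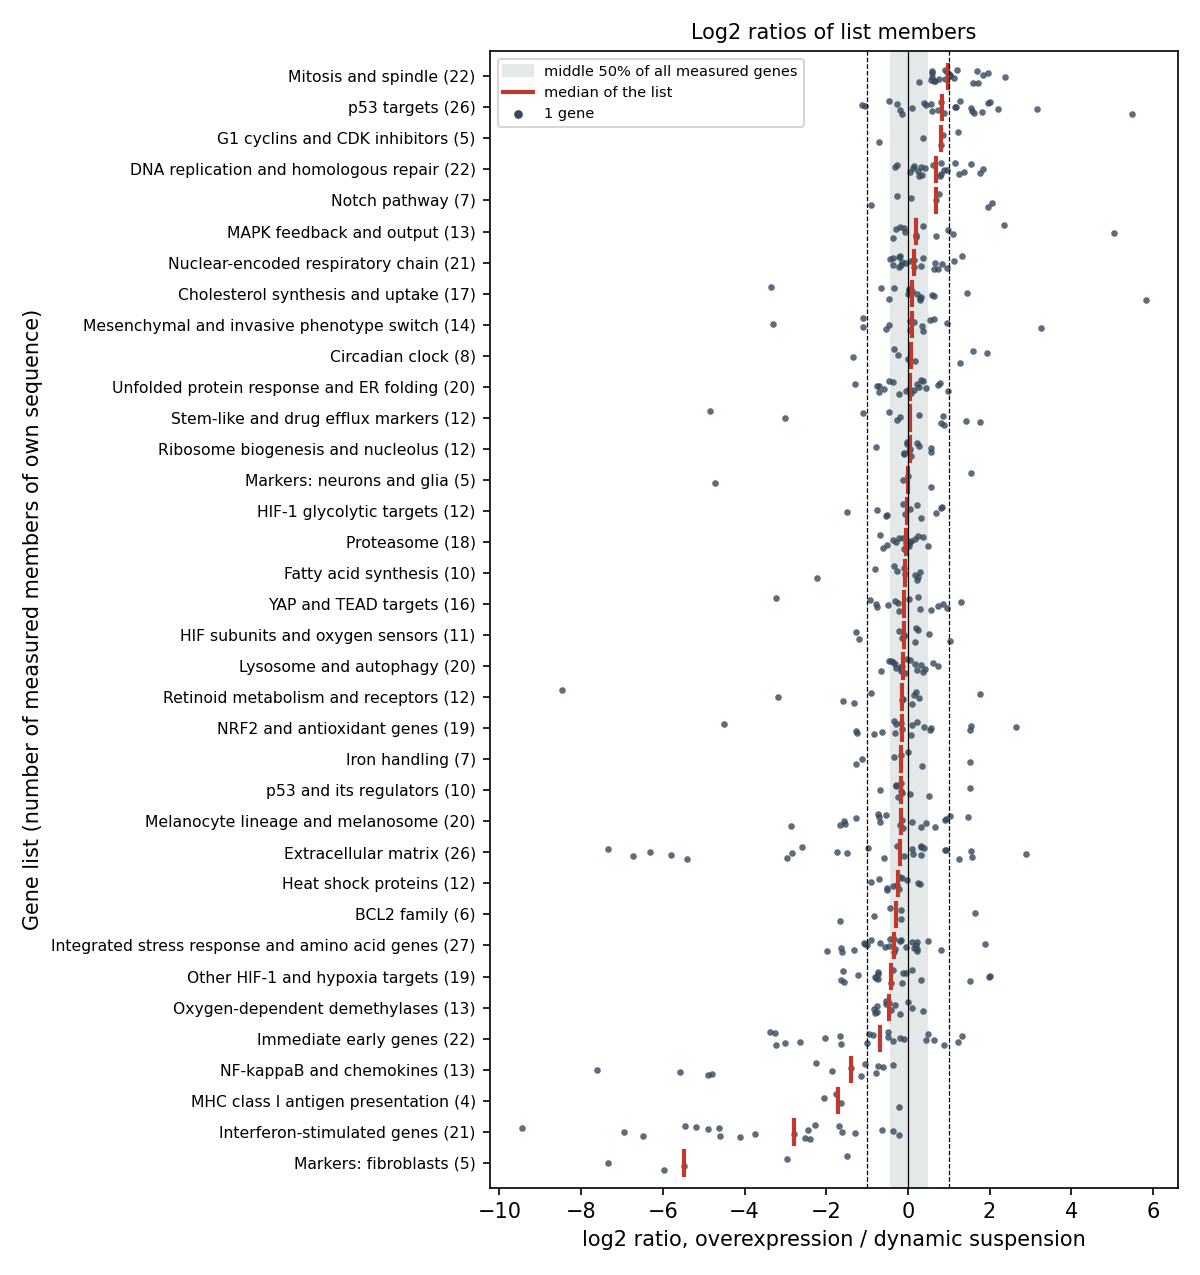
Log2 ratios of overexpression over dynamic suspension (horizontal axis) for the measured own-sequence members of the 36 lists with at least 4 such members (vertical axis, member number in brackets), 1 point per gene, with the list median in red, the middle 50% of all measured genes shaded and dashed lines at 2-fold. Mitosis and p53 targets have the highest medians, 0.99 and 0.84, and fibroblast markers and interferon-stimulated genes the lowest, -5.48 and -2.80, which become -1.49 (1 gene left) and -2.48 without genes that follow the kind of column.

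Stress pathways differed in part. The integrated stress response is the ATF4 programme that starved or stressed cells use to restock amino acids. Of its 45 genes, 27 were measured with own sequence, 16 with shared sequence and 2 were below 1 CPM. Of the 27, 1 was called higher and 7 lower, beside 10.6% and 7.77% of all measured genes, with a median log2 ratio of -0.34, beside 0.74 in labelled knockdown over shControl. Nupr1, a stress-induced chromatin protein, stood at 127 against 32.1 CPM, beside 96.9, 55.6 and 30.1, a log2 ratio of -1.98 (-2.19 to -1.79). Atf3, a stress transcription factor, stood at 71 against 22.9 CPM, beside 14.5, 31.9 and 69.4, a log2 ratio of -1.63 (-1.88 to -1.39). Trib3, a pseudokinase target of ATF4, stood at 249 against 99.4 CPM, beside 100.3, 159 and 664, a log2 ratio of -1.32 (-1.44 to -1.20).

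Vldlr, a lipoprotein receptor of this list, rested on 6 counts, with a log2 ratio of -1.61 (-3.40 to -0.36). Among the smallest lower calls were Nars at -1.01 and Wars at -1.07 (log2 ratios), which charge transfer RNA with asparagine and tryptophan. The calls of Vldlr, Nars and Wars ended with TMM factors from all genes, that of Vldlr because its mean fell below 1 CPM there. Cbs, the enzyme of cystathionine synthesis, was the higher call, at 2.16 CPM in dynamic suspension and 8.33 CPM in the overexpression library (log2 ratio 1.90 (1.15 to 2.88)). The unfolded protein response differed less, and 18.4% of all measured genes were called in either direction. Of 20 own-sequence genes of this response 1 was called, P4hb, a disulfide isomerase, lower at 3541 against 1447 CPM, beside 1940.2, 1786 and 1568. Its log2 ratio was -1.29 (-1.32 to -1.26), and the list's median was 0.05. Of 12 heat shock genes of own sequence 0 were called in either direction, with a median of -0.25.

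Immediate early genes encode transcription factors that respond within minutes to growth signals or handling. Of 29 listed, 22 were measured with own sequence, 6 with shared sequence and 1 was below 1 CPM. Of the 22, 2 were called higher and 9 lower, beside 10.6% and 7.77% of all measured genes, with a median log2 ratio of -0.67. Fos, a subunit of AP-1 (chromosome 12, 85473890 to 85477273, plus strand), stood at 195 CPM in dynamic suspension and 20.3 in the overexpression library, beside 15.1 in conventional 3D culture, 24.2 in shControl and 10.5 under the knockdown label, a log2 ratio of -3.26 (-3.50 to -3.04). Egr2, a zinc finger factor, stood at 16.9 against 1.52 CPM, beside 0.43, 1.12 and 0.777, a log2 ratio of -3.38 (-4.43 to -2.65). Gadd45b, a stress-response protein, had a log2 ratio of -3.23 (-3.72 to -2.82), and Klf4, which rested on 6 counts, one of -3.01 (-4.73 to -1.98). For Fos and Egr2 dynamic suspension stood over 8-fold above each of the other 4 libraries.

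The orphan nuclear receptors of the same list went the other way. Nr4a3 (chromosome 4, 48045153 to 48086447, plus strand) stood at 314 against 792 CPM, beside 1185, 85.2 and 94.3, a log2 ratio of 1.33 (1.26 to 1.4), and Nr4a1 stood at 104 against 242 CPM, beside 214, 91 and 161, a log2 ratio of 1.22 (1.10 to 1.35). Each receptor was highest in conventional 3D culture or in the overexpression library. Among MAPK feedback genes, which ERK signalling switches on, 3 of 13 were called higher and 0 lower, with a median of 0.21. Of all measured genes, 10.6% were called higher and 7.77% lower. Spry4, an inhibitor of receptor tyrosine kinase signalling, stood at 5.91 against 30.4 CPM, beside 12.2, 26.6 and 26.4, a log2 ratio of 2.34 (1.88 to 2.86). Etv4, an ETS factor, had 70 counts against a value of 4, a plain ratio of CPM, without a prior count, of 58.0 (counting interval 10.1 to 2323). Dusp4, a phosphatase of ERK, had a log2 ratio of 1.09 (1.02 to 1.17).

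Melanocyte lineage markers were present in both libraries. Tyr, tyrosinase, stood at 2158 CPM in dynamic suspension and 2714 CPM in the overexpression library. Dct, which acts in the same pigment pathway, stood at 14148 CPM in dynamic suspension and 27025 CPM in the overexpression library. Tyrp1 stood at 9407 CPM in dynamic suspension and 10055 CPM in the overexpression library, and Sox10, the neural crest factor, at 1491 CPM in dynamic suspension and 927 CPM in the overexpression library. None of these 4 was called. Of 30 listed genes of the lineage and its melanosomes, 20 were measured with own sequence, 6 with shared sequence and 4 were below 1 CPM. Of the 20, 2 were called higher and 5 lower, beside 10.6% and 7.77% of all measured genes. Their median log2 ratio was -0.18, beside -0.78 in labelled knockdown over shControl.

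Gpnmb, a melanosomal glycoprotein (chromosome 6, 49036546 to 49070929, plus strand), stood at 33641 CPM in dynamic suspension and 4653 in the overexpression library, beside 7477 in conventional 3D culture, 21208 in shControl and 10208 under the knockdown label. Its log2 ratio was -2.85 (-2.87 to -2.84), and the overexpression library was the lowest of the 5. Ptgds, prostaglandin D synthase, stood at 6890.5 against 2185 CPM, beside 3377, 1009.7 and 299, a log2 ratio of -1.66 (-1.68 to -1.63). Mlph, which links melanosomes to their motor, stood at 1155 against 388 CPM, beside 804, 1055 and 989, a log2 ratio of -1.57 (-1.63 to -1.51). Tspan10, a tetraspanin of pigment cells, had a log2 ratio of -1.54 (-1.58 to -1.49). Mitf, the master regulator of the lineage, stood at 749 against 312 CPM, beside 715, 677 and 275, a log2 ratio of -1.26 (-1.33 to -1.20), and followed the kind of column. The higher calls were Myo5a, the melanosome motor (chromosome 9, 75071015 to 75223688, plus strand), at 1662 against 4603 CPM, beside 4524, 945 and 433 and a log2 ratio of 1.47 (1.44 to 1.5), and Oca2, a melanosomal transporter, at 159 against 324 CPM, beside 484, 59.4 and 40.5 and a log2 ratio of 1.03 (0.93 to 1.13). Both were near equal in conventional 3D culture and the overexpression library or higher in the former.

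Mesenchymal, matrix and stem-like genes were called in both directions, beside 10.6% of all measured genes called higher and 7.77% lower. Of 14 measured mesenchymal and invasive-state genes of own sequence, 1 was called higher and 3 lower, with a median log2 ratio of 0.11. Plaur, the urokinase receptor (chromosome 7, 24462484 to 24475968, plus strand), stood at 5.06 against 49.7 CPM, beside 34, 35.4 and 57.1, a log2 ratio of 3.27 (2.79 to 3.82), and dynamic suspension was the one library far below the others. Sox9, a neural crest and cartilage factor (chromosome 11, 112782224 to 112787760, plus strand), stood at 117 against 11.7 CPM, beside 42.4, 31.6 and 9.33, a log2 ratio of -3.30 (-3.63 to -3.02), and followed the kind of column. Cdh2, N-cadherin, had a log2 ratio of -1.10 (-1.24 to -0.96) and Smad3, which carries TGF-β signals, one of -1.11 (-1.20 to -1.02), and both calls ended with TMM factors from all genes. Of 12 measured stem-like and drug efflux markers of own sequence, out of 28 listed, 2 were called higher and 3 lower, with a median of 0.04.

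Aldh1a3, an aldehyde dehydrogenase that makes retinoic acid, stood at 1.49 against 5.28 CPM, beside 7.19, 14.3 and 22.2, a log2 ratio of 1.76 (0.89 to 3.05). Tert, the telomerase catalytic subunit, rested on 54 counts and had a log2 ratio of 1.42 (0.66 to 2.39). Nes, nestin, stood at 102 against 47.5 CPM, beside 40.9, 148 and 237, a log2 ratio of -1.10 (-1.28 to -0.93). Cd24a, a surface mucin, had 0 counts against 85, at least 8.55-fold lower, and followed the kind of column. The calls of Nes and Cd24a ended with TMM factors from all genes, that of Cd24a because its mean fell below 1 CPM there. Klf4 is named above. Of the 7 measured own-sequence members of the Notch pathway, the ligands Jag2 and Jag1 were called higher and 0 were called lower. Of all measured genes, 10.6% were called higher and 7.77% lower. Jag2 stood at 10.7 against 44.9 CPM, beside 7.07, 13.2 and 18.4, a log2 ratio of 2.06 (1.70 to 2.44), and Jag1 at 5.94 against 23.3 CPM, beside 9.61, 19 and 27.3, a log2 ratio of 1.95 (1.49 to 2.49).

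Of 42 extracellular matrix genes, 26 were measured with own sequence, 13 with shared sequence and 3 were below 1 CPM. Of the 26, 4 were called higher and 10 lower, beside 10.6% and 7.77% of all measured genes. Their median log2 ratio was -0.18. It was 0.32 over the members that averaged at least 10 CPM and 0.32 without genes that follow the kind of column. With TMM factors from all genes it was 0.03, over 25 members. Hpse, heparanase (chromosome 5, 100679484 to 100719716, minus strand), stood at 748 CPM in dynamic suspension and 2237 in the overexpression library, beside 2073 in conventional 3D culture, 62.4 in shControl and 22.3 under the knockdown label, a log2 ratio of 1.58 (1.54 to 1.62). Lama5, a laminin chain, stood at 178 against 525 CPM, beside 172, 63.9 and 221, a log2 ratio of 1.56 (1.47 to 1.65). Mmp15, a membrane-bound metalloproteinase, stood at 5.52 against 41.4 CPM, beside 14.5, 31 and 27.7, a log2 ratio of 2.88 (2.43 to 3.42). Lamb1, another laminin chain, had a log2 ratio of 1.25 (0.93 to 1.59). The lower calls were led by collagens and other matrix genes at 0 counts in the overexpression library. Col1a2 was at least 49.6-fold lower, Bgn at least 32.3-fold, Thbs2 at least 24.3-fold and Col5a2 at least 16.8-fold.

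Of the 14 calls of the list 8 followed the kind of column, these 4 genes included. Markers of fibroblasts were lower as well, but that list shares at least its lowest gene, Col1a2, with the matrix list. The fibroblast markers are therefore not a separate set of genes. All 10 fibroblast markers together summed to 81.3 CPM in dynamic suspension and 8.79 in the overexpression library, beside 290.5 in conventional 3D culture, 93.8 in shControl and 30.2 under the knockdown label. Of the 10, 6 were at 0 in the overexpression library and 0 of 10 were at 0 in dynamic suspension. Dcn (at least 19.2-fold lower) and Acta2 (at least 13.5-fold lower) were among those at 0. The 5 markers of own sequence were all called lower, beside 7.77% of all measured genes. Their median log2 ratio was -5.48, or -3.75 with genes at 0 set to their bound and -7.45 with a prior count of 0.5. Of these 5 calls, 4 followed the kind of column, and the 1 gene left without them had a log2 ratio of -1.49. Their part in the matrix and mesenchymal results was not tested.

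Markers of other cell types were in part at 0 in both libraries, and those of muscle, neurons and glia were in part present. Of 10 epithelial markers 8 were at 0 in both, among them Epcam, Krt5 and Krt14, and of 8 endothelial markers Cdh5, Tek, Tie1, Emcn and Erg were. Vwf, the endothelial marker that passed the filter, stood at 2.23 against 9.62 CPM, beside 22.2, 6.66 and 4.27, a log2 ratio of 2.06 (1.30 to 2.96). Of 6 erythroid markers 5 were at 0 in both. The 14 muscle markers summed to 67.0 CPM in dynamic suspension and 222 CPM in the overexpression library, with Myh1, Myh2, Myog and Myod1 at 0 in both. Their sum was 631 CPM in conventional 3D culture, 51.9 in shControl and 38.5 under the knockdown label. Of the 14, 12 averaged below 1 CPM and the 2 measured are of shared sequence, so these sums are uncertain. The 10 markers of neurons and glia summed to 1200.0 CPM in dynamic suspension and 1099 CPM in the overexpression library. Of the 10, 5 were measured with own sequence. Of these 5, 1 was called higher and 1 lower, beside 10.6% and 7.77% of all measured genes. Their median log2 ratio was 0.01 and the lowest was -4.73. Mbp, a myelin protein, was the higher call, at 46.7 against 137 CPM, beside 125, 38.8 and 269, a log2 ratio of 1.55 (1.37 to 1.73).

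In lipid metabolism single genes differed and the lists did not. Of 17 cholesterol genes of own sequence 2 were called higher and 1 lower, beside 10.6% and 7.77% of all measured genes. Their median log2 ratio was 0.11. Insig1, which retains the SREBP complex and is its target (chromosome 5, 28071363 to 28078662, plus strand), stood at 358 against 979.6 CPM, beside 801, 128 and 185, a log2 ratio of 1.45 (1.39 to 1.52). Abca1, the cholesterol exporter (chromosome 4, 53030787 to 53159895, minus strand), stood at 637 against 62.4 CPM, beside 112, 80.4 and 38.6, a log2 ratio of -3.35 (-3.48 to -3.22). Of 10 fatty acid synthesis genes Fads2, a desaturase, was the one called, lower, at 662 against 142 CPM, beside 369, 323 and 357 and a log2 ratio of -2.22 (-2.31 to -2.13).

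Antioxidant genes under NRF2 went both ways, with 3 of 19 called higher, 3 lower and a median of -0.14. Of all measured genes, 10.6% were called higher and 7.77% lower. Nqo1, a quinone reductase (chromosome 8, 107388225 to 107403206, minus strand), stood at 7.93 against 50.5 CPM, beside 32, 4.1 and 8.81, a log2 ratio of 2.66 (2.27 to 3.10). Gclc, which makes glutathione precursors, had a log2 ratio of 1.54 (1.36 to 1.74), and Gsr, glutathione reductase, one of 1.52 (1.33 to 1.71). In the other direction, Hmox1, haem oxygenase, stood at 1008 against 419.8 CPM, beside 134, 100.03 and 147, a log2 ratio of -1.26 (-1.32 to -1.21). Gsta3, a glutathione transferase, stood at 63.8 against 2.7 CPM, beside 3.75, 1.16 and 0.259, a log2 ratio of -4.51 (-5.24 to -3.96). Nfe2l2, the gene of NRF2 itself, had one of -1.24 (-1.34 to -1.14).

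Retinoid genes held one of the most different genes of the comparison. Dhrs3, which reduces retinaldehyde and is induced by retinoic acid (chromosome 4, 144892827 to 144928209, plus strand), stood at 451 CPM in dynamic suspension and 1.17 in the overexpression library, beside 2.03 in conventional 3D culture, 97.7 in shControl and 33.2 under the knockdown label. The overexpression value rested on 10 counts, and the log2 ratio was -8.46 (-9.65 to -7.71). Cyp26b1, which breaks down retinoic acid, stood at 59.8 against 6.45 CPM, beside 8.48, 29 and 31.7, a log2 ratio of -3.19 (-3.64 to -2.80). For both genes dynamic suspension was the highest library and the overexpression library the lowest. Crabp2, a retinoic acid carrier, had 8 counts and a log2 ratio of -1.59 (-3.11 to -0.51). Its call ended with TMM factors from all genes, because its mean fell below 1 CPM there. Over the 12 measured own-sequence retinoid genes, 1 was called higher and 3 were called lower, beside 10.6% and 7.77% of all measured genes. The median of the 12 was -0.14.

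Few own-sequence genes of basic cell machinery were called, beside 10.6% of all measured genes called higher and 7.77% lower. Among own-sequence genes, 0 of 18 proteasome genes, 0 of 12 ribosome biogenesis genes, 0 of 20 lysosome and autophagy genes and 0 of 13 oxygen-dependent demethylases were called in either direction. Their medians were -0.06, 0.04, -0.12 and -0.46, and 10 of the 13 demethylase ratios were below 0. The lysosome median was 0.003, above 0, with TMM factors from all genes. Of 21 nuclear-encoded respiratory chain genes, 2 were called higher, Cox6a1 at 335 against 842 CPM, beside 386, 380.3 and 552 (log2 ratio 1.33 (1.26 to 1.4)) and Ndufa1 at 41.3 against 90.4 CPM, beside 39.7, 72.6 and 53.1 (log2 ratio 1.13 (0.93 to 1.33)), and the list's median was 0.14, or -0.0099 with shared-sequence members. Of 13 mitochondrially encoded genes 12 are of shared sequence, 6 of them called lower, beside 924 of 5112 such protein-coding genes. The median of those 12 was -2.34. The 1 with own sequence, mt-Cytb, stood at 10088 against 5879.6 CPM, beside 16742, 13515 and 9143, a log2 ratio of -0.78 (-0.80 to -0.76).

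Smaller lists held a few calls each, beside 10.6% of all measured genes called higher and 7.77% lower. Of 16 YAP and TEAD targets 1 was called in each direction, Ubash3b higher (1.30) and Gadd45b lower (-3.23), both as log2 ratios, with a median of -0.09. Of 8 circadian clock genes 3 were called higher, led by Per3, a repressor of the clock, at 11.7 against 45.4 CPM, beside 10.9, 5.36 and 4.27 and a log2 ratio of 1.94 (1.60 to 2.31), with Per2 at 1.60 and Cry1 at 1.29. Hlf, a clock output factor, was the lower call at -1.34. In the BCL2 family Bok, a pro-death member, was called higher (1.65) and Bcl2l11, the pro-death protein BIM, lower, at 70.3 against 22.3 CPM, beside 16.1, 26 and 41.6 and a log2 ratio of -1.65 (-1.91 to -1.41). Among 7 iron genes, Tfrc was the higher call and Hmox1 and Steap3, a ferric reductase (-1.12), were the lower ones.

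Over all 5757 main-set genes that averaged at least 10 CPM, the lowest log2 ratios included, beside Oasl2, Dhrs3, Cxcl1, Ccl5, Gbp3, Xaf1 and Lif, genes outside the lists. Sema7a, a membrane-anchored semaphorin (chromosome 9, 57940112 to 57962865, plus strand), stood at 908 against 16.7 CPM, beside 22.1, 76 and 11.7, a log2 ratio of -5.76 (-6.02 to -5.53). Tnfrsf9, the co-stimulatory receptor 4-1BB (chromosome 4, 150914562 to 150946102, plus strand), stood at 176 against 4.81 CPM, beside 22.5, 8.48 and 2.85, a log2 ratio of -5.16 (-5.68 to -4.74). Trim30a, an interferon-induced ubiquitin ligase (chromosome 7, 104409025 to 104465193, minus strand), stood at 170.5 against 3.52 CPM, beside 21.4, 3.22 and 0.259, a log2 ratio of -5.56 (-6.17 to -5.08). Dynamic suspension was the highest library for each of these 3. Plekhb1 (chromosome 7, 100642892 to 100662414, minus strand) had 8 counts, 44.1 against 0.938 CPM, beside 1.45, 3.96 and 1.81 and a log2 ratio of -5.40 (-6.78 to -4.56). Wdr74, a ribosome assembly factor (chromosome 19, 8735827 to 8740624, plus strand), had 0 counts against 1111, at least 112-fold lower, and was near 0 in the library labelled knockdown as well, so that it followed the kind of column.

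Of the 12 highest log2 ratios in the same set, 11 fell on genes outside the lists. Cdh13, T-cadherin (chromosome 8, 118283733 to 119324921, plus strand), stood at 1.24 against 80.9 CPM, beside 32.2, 6.83 and 21.6, a log2 ratio of 5.91 (5.06 to 7.12). Adam23, a disintegrin without protease activity (chromosome 1, 63445891 to 63596276, plus strand), stood at 28.1 against 334 CPM, beside 569, 57.9 and 97.9, a log2 ratio of 3.57 (3.37 to 3.79). Cort, cortistatin (chromosome 4, 149125034 to 149126763, minus strand), stood at 6.55 against 85.4 CPM, beside 163, 1.86 and 2.07, a log2 ratio of 3.68 (3.28 to 4.18). In Adam23 and Cort, conventional 3D culture was higher still. Guca1a, a calcium sensor of photoreceptors (chromosome 17, 47394558 to 47400584, minus strand), had 274 counts against 0 in dynamic suspension, at least 75.7-fold higher.

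Pde10a, a phosphodiesterase (chromosome 17, 8525372 to 8986648, plus strand), stood at 3.29 against 57.3 CPM, beside 32.2, 9.53 and 9.46, a log2 ratio of 4.08 (3.54 to 4.81). Slc9a5, a sodium-proton exchanger (chromosome 8, 105348843 to 105369881, plus strand), stood at 5.27 against 68.1 CPM, beside 60.6, 18.9 and 24, a log2 ratio of 3.66 (3.22 to 4.22). Trpv4, a calcium channel (chromosome 5, 114622152 to 114658421, minus strand), stood at 1.8 against 21 CPM, beside 16.1, 0.841 and 0.389, a log2 ratio of 3.46 (2.70 to 4.45). For Pde10a, Slc9a5 and Trpv4 the overexpression library was the highest and conventional 3D culture the next. Baiap2l2 (chromosome 15, 79258195 to 79285537, minus strand) stood at 0.849 against 23.9 CPM, beside 38.8, 1.12 and 2.98, a log2 ratio of 4.65 (3.67 to 6.28). Fzd9, a Wnt receptor (chromosome 5, 135248938 to 135251230, minus strand), had a log2 ratio of 3.38 (2.85 to 4.0), Shc3, a neuronal adaptor (chromosome 13, 51431041 to 51569419, minus strand), one of 3.57 (3.01 to 4.24), and Osbpl3, an oxysterol-binding protein (chromosome 6, 50293330 to 50456201, minus strand), one of 3.50 (2.95 to 4.12). Plaur, named above, was the 12th.

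The other 3 libraries were placed between or beside the pair for each called gene. Of the 716 genes called higher, conventional 3D culture was nearer to the overexpression library than to dynamic suspension in 411 (57.4%), shControl in 348 (48.6%) and the library labelled knockdown in 418 (58.4%). Of the 525 called lower, the same held in 296 (56.4%), 247 (47.0%) and 371 (70.7%). These shares are descriptions of single libraries, and the library labelled knockdown has the same kind of column as the overexpression library.

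**Figure D4:**
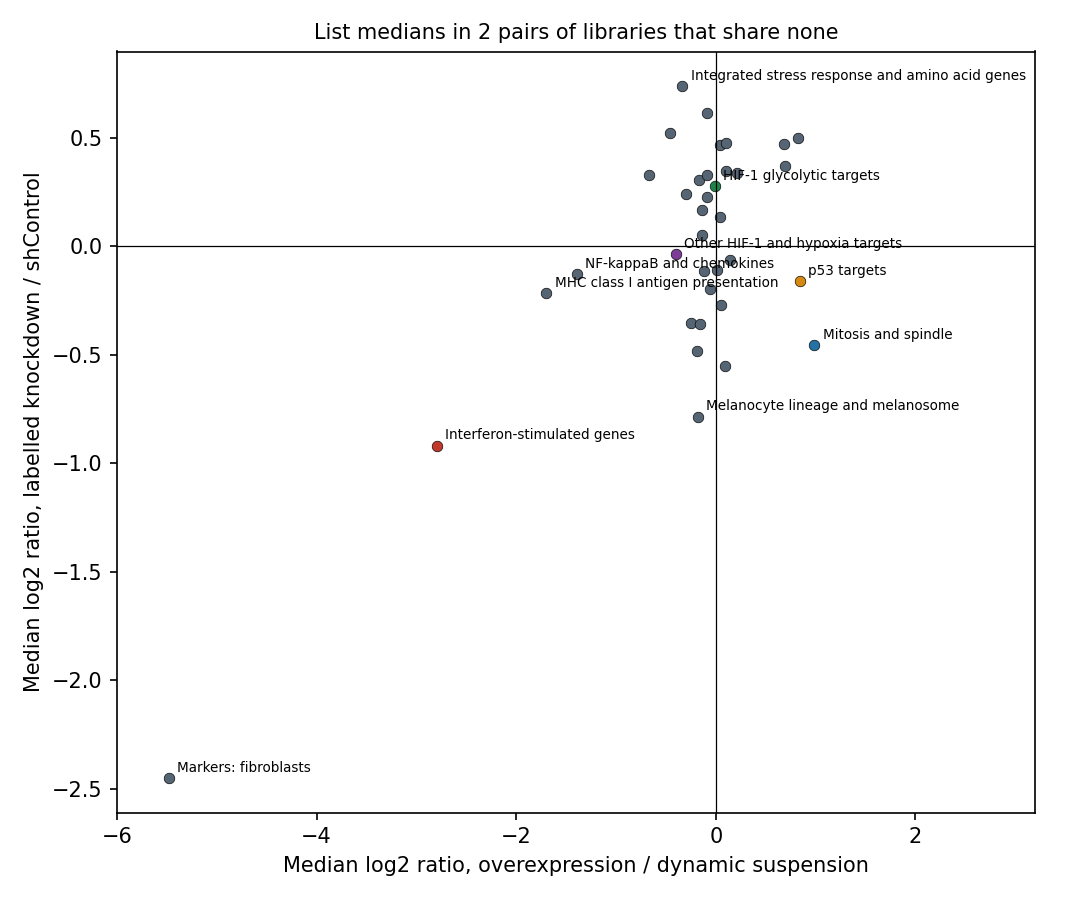
Median log2 ratio of each of the 36 lists in overexpression over dynamic suspension (horizontal axis) and in labelled knockdown over shControl (vertical axis), 1 point per list, over the same own-sequence genes. Both pairs set a plain-count over an estimated-count column and share no library. Interferon-stimulated genes (-2.80 and -0.92) and fibroblast markers lie below 0 on both axes, and the mitosis list (0.99 and -0.46) and p53 targets (0.84 and -0.16) do not.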

How the data were processed

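RNA of 5 pooled B16F10 libraries was sequenced, 1 library per group. The submitters' processing notes name HISAT2, StringTie and cutadapt, and as builds mm10 and GRCm38.p6. Which program counted reads, with which annotation and whether by strand is not given in the sources used here. The deposited values of the overexpression and labelled knockdown columns are plain counts by their pattern. The deposited values of the dynamic suspension, conventional 3D and shControl columns are estimated counts by their pattern. All 54100 gene identifiers matched GENCODE M21 (GRCm38), and 0 columns were left unmapped.

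The values were scaled by TMM (edgeR 4.0.16, R 4.3.3) from protein-coding genes of own sequence over the 5 libraries, with factors of 0.984 for dynamic suspension and 1.051 for overexpression. Such genes held 47.1% and 52.7% of the values. The log2 ratio used a prior count of 2, and that of labelled knockdown over shControl an offset of 0.1 CPM. Plain ratios of CPM, given for a few genes of very low count, used no prior count. For intervals the dynamic suspension values, whose sum divided by 4 is 15253565, were divided by 4. A count of 0 was bounded by 3 counts in the overexpression library and a value of 12 in dynamic suspension, which are 0.352 and 0.425 CPM. Groups have 1 library each, so no test was run. Named genes were Hif1a, Epas1, Trp53, Mdm2 and Cdkn1a, the 12 highest and 12 lowest ratios at a mean of at least 10 CPM, up to 4 called members per side of each list, and any measured member of 3 lists (HIF subunits and sensors, glycolytic targets, p53 and its regulators). The genes to describe and the 42 lists were chosen with earlier results of these data known. The scripts were tested on simulated data. Alternatives covered scaling (including DESeq2 1.42.0 size factors), gene set, filter, prior count and interval. A few members of the lists are counted in their list's totals and are not reported by name here.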

Additional observations from a re-analysis of the deposited data

How the results depend on the processing

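No paired analysis was possible because each group has 1 library, and for the same reason no library of the pair could be left out. Over all genes of the table the calls were 1449 higher and 2298 lower. At an average of at least 10 CPM, which tests fewer genes, they were 447 higher and 313 lower. Under 4 other scalings, a prior count of 0.5, no filter, intervals from the values as deposited, or without genes that follow the kind of column (chosen after seeing the data), both counts stayed within 1.5 times those reported. The glycolytic median was 0.11 with TMM factors from all genes and -0.34 with shared-sequence members. The median of other hypoxia targets was -0.73 with shared-sequence members, at 10 CPM and with no filter. That of interferon-stimulated genes was -2.54 with TMM factors from all genes, under which 20 of the 21 genes passed the filter. It was -3.82 with shared-sequence members, -2.45 at 10 CPM and -2.48 without genes that follow the kind of column. Of 36 list medians 13 changed sign under at least 1 alternative, all of them at most 0.18 in size, among them lysosome and autophagy (0.0029, TMM factors from all genes) and the nuclear-encoded respiratory chain (-0.0099, shared-sequence members). The causes were not tested. Of 145 genes named by rule and called, TMM factors from all genes ended the call of 13 (Perp, Sesn2, Nos2, Birc3, Vldlr, Wars, Nars, Klf10, Smad3, Cdh2, Cd24a, Nes and Crabp2), and scaling by totals that of 6 of these. Nos2, Vldlr, Cd24a and Crabp2 lost the call through the filter, since CPM are lower with TMM factors from all genes. No called gene that is named changed sign under the scaling, prior count and interval alternatives, and Hif1an, Hk2 and Aldoc, which were not called, did with TMM factors from all genes. Genes that averaged below 1 CPM enter only the counts and medians with no filter and the marker sums.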
